A study of Mus musculus with 16 samples.

Results

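The 36 genes described here encode glutamate receptors and postsynaptic scaffolds. They were chosen by name, as the genes of the deposited count table whose symbol equals one of 36 listed symbols, and all 36 were found among the 54532 genes listed. By role they fall into 10 groups: 4 AMPA receptor subunits, 5 kainate receptor subunits, 6 NMDA receptor subunits, 1 delta receptor subunit, 6 metabotropic receptors, 4 MAGUK scaffolds, 3 Shank scaffolds, 3 Homer scaffolds, 2 CaMKII subunits and 2 neuroligins. All 36 passed the filter on low counts, over the 16 mice and in each comparison.

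RNA-seq counts came from the hippocampi of 16 mice, 4 in each of 4 groups. WT and hTau.P301S mice drank vehicle water, and WT + NR and hTau.P301S + NR mice drank water with 6 mM NR, nicotinamide riboside, a precursor of NAD+. In hTau.P301S mice a transgene encoding P301S mutant human Tau is driven by Thy1 sequences, which are active mainly in neurons. According to the labels, treatment began at 12 months of age and lasted 3 months, to 15 months of age, whereas the text of the study gives other ages. The labels give neither the sex of the mice nor the background strain of WT. From Xist and Y-linked genes, males numbered 1 of 4 in WT, 1 of 4 in WT + NR, 2 of 4 in hTau.P301S and 3 of 4 in hTau.P301S + NR, so sex was not balanced between groups.

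Glutamate is the main excitatory transmitter of the hippocampus. AMPA, kainate and NMDA receptors are ion channels built from several subunits, and metabotropic glutamate receptors signal through G proteins. On the receiving side of the synapse, MAGUK proteins hold the channels in place, Shank and Homer proteins link them to the layers beneath, neuroligins bind partners across the cleft, and the kinase CaMKII acts on the receptors when calcium enters. NMDA receptors and CaMKII are known for their part in the long-lasting strengthening of hippocampal synapses.

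Depth lay between 16490261 and 21915362 counts per mouse. The mouse hTau.P301S replicate 1 stood apart from the rest. Its mitochondrial genes took 14.4% of counts and 19467 genes were detected, against 4.48% to 7.07% and at least 22199 genes in the other 15 mice, and its levels relative to the mean of the mice fell by 0.51 on the log2 scale per doubling of gene length. Its 6 microglia markers summed to 1810 CPM, against 305 to 658 CPM in the others, but C1qa alone made up 1230 CPM of this, while Cx3cr1, at 29.7 CPM, was the lowest of the 16 mice and P2ry12, at 54.8 CPM, lay within the range of the others. The members are long, with a median length of 9230 bases against 3931 for the 17555 genes kept over 16 mice. The members took 0.342% of counts in this mouse and 0.644% to 1.38% in the others. In 3 further mice, WT replicate 2, WT + NR replicate 3 and hTau.P301S + NR replicate 4, the summed level of 6 striatum markers was 1460, 303 and 509 CPM, against at most 166 CPM in the other 13, and the 5 markers of excitatory neurons summed to 334, 411 and 1010 CPM, against at least 1160 CPM. CPM are TMM-normalised. The 6 choroid plexus markers summed to 2470 to 9860 CPM in 6 mice, 2 of WT, 2 of WT + NR and 1 of each hTau.P301S group, and to 19.1 to 443 CPM in the other 10. The 5 thalamus markers summed to 258 CPM in hTau.P301S + NR replicate 4 and 228 CPM in hTau.P301S replicate 1. In the remaining mice the thalamus markers summed to 64.2 to 142 CPM. The part of these differences between mice in the results below was not tested, beyond leaving the mice out. No marker of the excitatory neuron or striatum lists was at 0 in all mice. In bulk tissue, fewer cells of a type and less RNA per cell cannot be told apart.

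**Figure D1:**
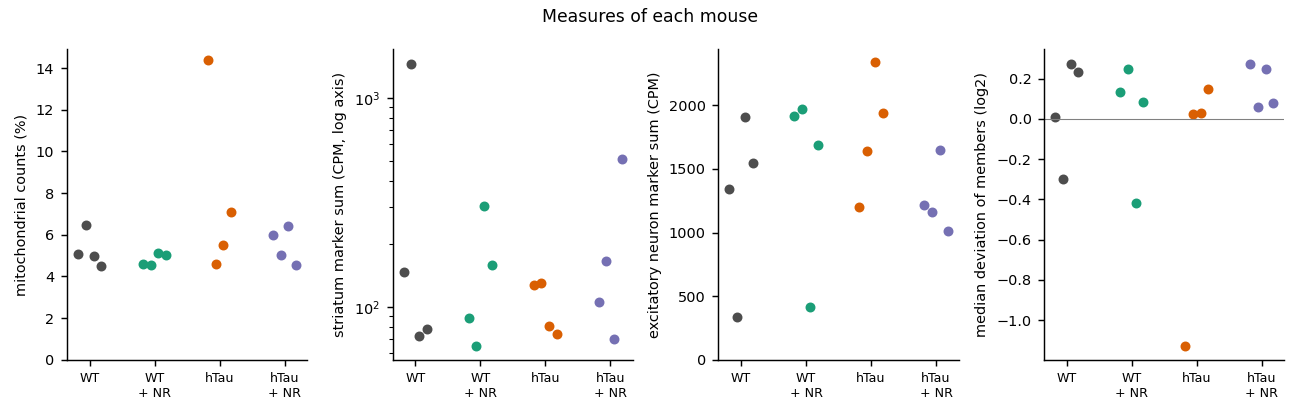
Each point is 1 of 16 mice, with replicates 1 to 4 from left to right in a group, and the panels show the percentage of mitochondrial counts, the summed CPM of striatum markers on a log axis, the summed CPM of excitatory neuron markers, and the median over the 36 members of the log2 deviation from the mean of 16 mice. hTau.P301S replicate 1 has the highest mitochondrial share, 14.4%, and the lowest member deviation, -1.13, and WT replicate 2 has the highest striatum marker sum, 1460 CPM.

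Levels differed widely between members. Divided by gene length (RPKM, the CPM per kilobase), the levels ran from 412 ± 148 for Camk2a (SD, n = 16) to 0.932 ± 0.328 for Grm8 (SD, n = 16). Camk2a, the alpha subunit of CaMKII, was followed by Gria1, the GluA1 subunit of AMPA receptors, at 133 ± 38.9 RPKM, and Camk2b, the beta subunit, at 127 ± 38.3 RPKM. The ranges of Gria1 and Camk2b over the mice overlapped, from 69.0 to 188 and from 59.1 to 196 RPKM. Dlg4, which encodes PSD-95, came next at 52.4 ± 8.47 RPKM. The most abundant member of each other role was Grik5 at 46.5 ± 9.02, Grin1 at 34.0 ± 6.58, Shank1 at 33.3 ± 11.9, Grm5 at 25.0 ± 6.31, Grid1 at 12.2 ± 2.47, Homer3 at 9.50 ± 4.51 and Nlgn3 at 6.15 ± 1.04 RPKM. Homer1 was close to Homer3 at 8.83 ± 2.57 RPKM. Apart from Grm8, the lowest levels were those of Grik1, Grin2d, Grin3a, Grm4 and Grik2, at 1.89, 2.95, 3.52, 3.69 and 4.55 RPKM.

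**Figure D2:**
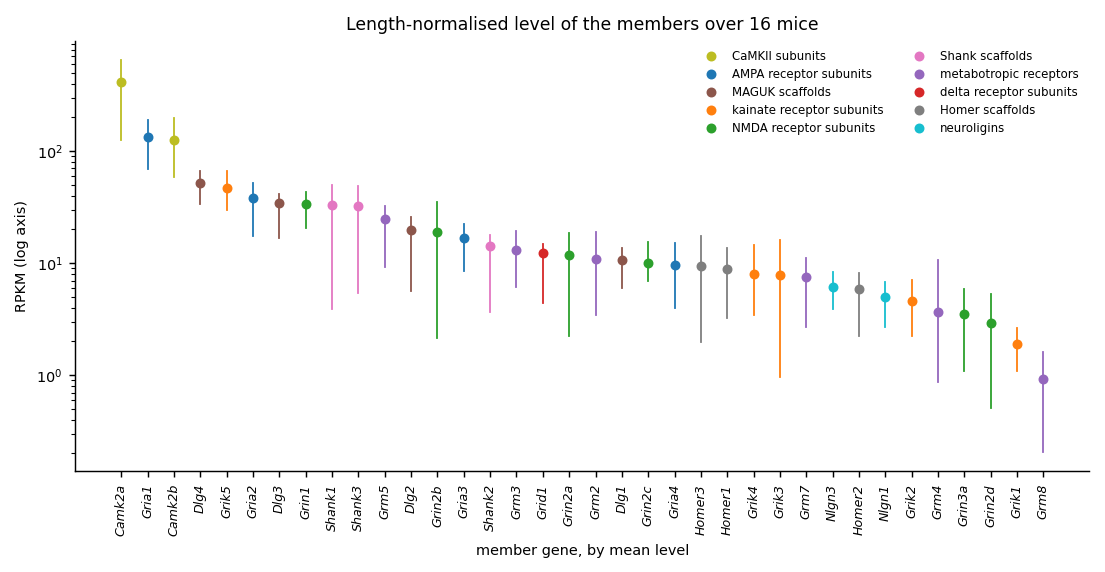
Mean RPKM of each member over 16 mice (points, log axis, coloured by role) with the range from the lowest to the highest mouse (lines). Camk2a is highest at 412 RPKM and Grm8 lowest at 0.932 RPKM, and Grin2b and Grik3 have among the longest ranges, from 2.14 to 35.3 and from 0.962 to 16.1 RPKM.

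Members also differed in how much they varied between mice. Over the 15 mice other than hTau.P301S replicate 1, the median coefficient of variation was 24.2% for the members and 22.4% for all genes kept, and 16% for genes at or above the mean CPM of the lowest member. Grid1, the GluD1 subunit of delta receptors, varied least at 10.9%, followed by Dlg4 at 13.1%. Grm4, a presynaptic metabotropic receptor, varied most at 61.1%, followed by Homer3 at 46.7%, Grin2b at 43.8%, Grin2a at 42.3% and Grik4 at 40.4%. In hTau.P301S replicate 1, 25 of the 36 members had their lowest level of the 16 mice. Grin1 and Nlgn3 were not among them.

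**Figure D3:**
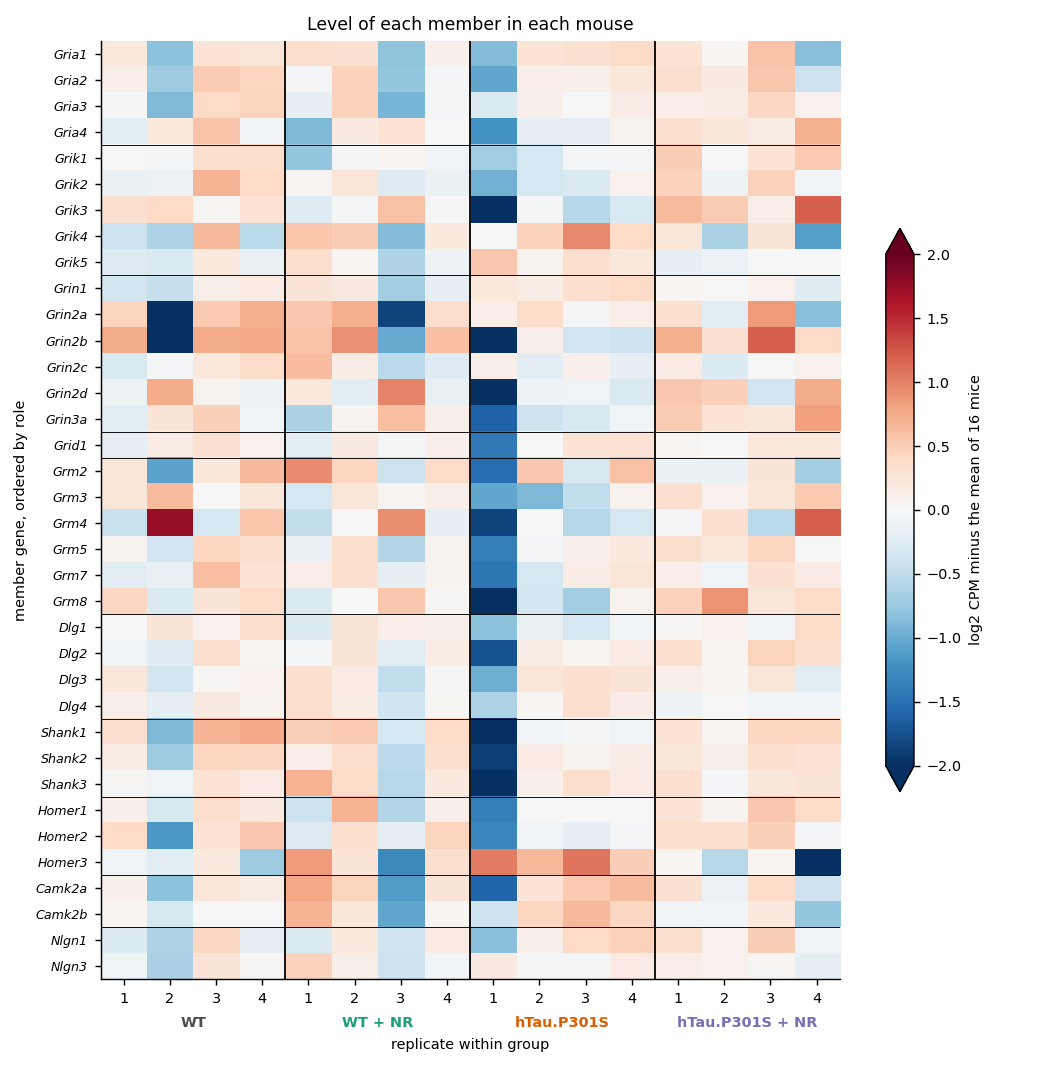
Rows are the 36 members grouped by role and columns the 16 mice grouped by condition, and colour gives the log2 CPM of a member minus its mean over the 16 mice, with deviations past the ends of the scale drawn at its ends. The column of hTau.P301S replicate 1 is blue for most members, 25 of which have their lowest level there, and Homer3 is red in all 4 hTau.P301S mice.

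Among AMPA receptor subunits, Gria1 was at 884, 430, 920 and 897 CPM in WT replicates 1 to 4 and at 967, 945, 436 and 817 CPM in WT + NR. It was at 417, 917, 938 and 993 CPM in hTau.P301S and at 919, 786, 1130 and 428 CPM in hTau.P301S + NR. Each group thus held 1 low mouse, and these were the 4 mice that stood apart. Gria4, encoding GluA4, was at 49.8, 66.7, 85.3 and 55.7 CPM in WT, at 30.8, 65.2, 70.6 and 57.2 CPM in WT + NR, at 24.9, 51.5, 50.9 and 60.7 CPM in hTau.P301S and at 72.0, 67.8, 64.1 and 94.7 CPM in hTau.P301S + NR. All 4 NR-treated hTau.P301S mice were above all 4 untreated ones. Gria2, whose subunit limits calcium entry, and Gria3 ranged from 272 to 810 and from 84.3 to 220 CPM over the 16 mice.

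Among kainate receptor subunits, Grik3, encoding GluK3, was at 77.9, 82.9, 63.8 and 76.2 CPM in WT, at 52.5, 60.7, 93.9 and 61.3 CPM in WT + NR, at 8.63, 61.4, 42.2 and 50.8 CPM in hTau.P301S and at 96.8, 88.6, 68.3 and 144 CPM in hTau.P301S + NR. The hTau.P301S mice lay below every WT and every hTau.P301S + NR mouse. Grik1, encoding GluK1, was at 12.3, 12.0, 15.6 and 15.7 CPM in WT, at 7.24, 12.0, 12.7 and 11.8 CPM in WT + NR, at 7.61, 9.80, 12.2 and 12.1 CPM in hTau.P301S and at 17.4, 12.5, 15.0 and 17.7 CPM in hTau.P301S + NR. Grik2, encoding GluK2, was at 53.3, 53.6, 93.3 and 76.7 CPM in WT, at 60.3, 68.9, 48.8 and 53.2 CPM in WT + NR, at 29.8, 45.9, 47.4 and 61.6 CPM in hTau.P301S and at 80.4, 54.1, 80.4 and 56.2 CPM in hTau.P301S + NR. Both were higher with NR than without it in hTau.P301S, without overlap for Grik1 and with overlap for Grik2. Grik5, encoding the high-affinity subunit GluK5, was at 197, 193, 271 and 214 CPM in WT, at 297, 244, 155 and 219 CPM in WT + NR, at 342, 247, 295 and 272 CPM in hTau.P301S and at 211, 217, 236 and 237 CPM in hTau.P301S + NR. It was the only member whose highest level was in hTau.P301S replicate 1. Grik4, the other high-affinity subunit, ranged from 20.6 to 85.8 CPM.

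Among NMDA receptor subunits, Grin1, the subunit that every NMDA receptor contains, was at 251, 235, 351 and 362 CPM in WT, at 388, 366, 200 and 288 CPM in WT + NR, at 375, 360, 409 and 422 CPM in hTau.P301S and at 331, 323, 343 and 273 CPM in hTau.P301S + NR. Grin2b, encoding GluN2B, was at 641, 53.1, 641 and 644 CPM in WT, at 565, 716, 189 and 576 CPM in WT + NR, at 71.7, 409, 294 and 287 CPM in hTau.P301S and at 634, 469, 878 and 505 CPM in hTau.P301S + NR. The lowest WT value was that of replicate 2, and the other 3 WT mice were above all hTau.P301S mice. Grin3a, encoding GluN3A, was at 34.7, 48.4, 56.5 and 38.7 CPM in WT, at 26.2, 42.7, 61.2 and 44.0 CPM in WT + NR, at 13.2, 30.5, 32.3 and 38.0 CPM in hTau.P301S and at 57.5, 49.1, 47.3 and 71.8 CPM in hTau.P301S + NR. The untreated hTau.P301S mice lay below all NR-treated ones. Grin2a, encoding GluN2A, ranged from 40.3 to 335 CPM, with its lowest values of 40.3, 51.9 and 105 CPM in the 3 mice high in striatum markers. Grin2c and Grin2d ranged from 34.9 to 77.2 and from 3.42 to 35.2 CPM. The delta receptor subunit Grid1 was at 62.1, 78.5, 87.5 and 75.0 CPM in WT, at 60.8, 79.6, 68.4 and 75.8 CPM in WT + NR, at 26.3, 70.7, 85.2 and 86.1 CPM in hTau.P301S and at 73.1, 70.6, 82.1 and 82.0 CPM in hTau.P301S + NR, with hTau.P301S replicate 1 alone at the low end.

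Among metabotropic receptors, Grm3, encoding mGluR3, which neurons and astrocytes express, was at 45.1, 59.3, 38.1 and 44.8 CPM in WT, at 29.9, 45.1, 39.6 and 41.3 CPM in WT + NR, at 18.7, 20.6, 27.3 and 40.2 CPM in hTau.P301S and at 48.3, 40.4, 45.3 and 55.1 CPM in hTau.P301S + NR. Only hTau.P301S replicate 4 reached into the WT range. Grm8, a presynaptic receptor, was at 11.3, 7, 10.2 and 11.1 CPM in WT, at 6.98, 8.58, 12.4 and 8.63 CPM in WT + NR, at 2.05, 6.57, 5.23 and 8.92 CPM in hTau.P301S and at 11.7, 15.8, 10.0 and 11.1 CPM in hTau.P301S + NR. Grm5, the postsynaptic receptor that Homer proteins bind, was at 258, 188, 331 and 307 CPM in WT, at 225, 312, 164 and 258 CPM in WT + NR, at 94.1, 238, 263 and 282 CPM in hTau.P301S and at 315, 283, 332 and 244 CPM in hTau.P301S + NR. These groups overlapped for Grm5 in every comparison. Grm2 and Grm7 ranged from 16.8 to 93.0 and from 15.7 to 65.2 CPM. Grm4 ranged from 5.21 to 63.1 CPM and was highest, at 63.1, 43.0 and 35.7 CPM, in the 3 mice high in striatum markers.

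Among MAGUK scaffolds, Dlg1, encoding SAP97, was at 113, 135, 119 and 144 CPM in WT, at 93.2, 134, 123 and 122 CPM in WT + NR, at 63.8, 102, 89.3 and 107 CPM in hTau.P301S and at 115, 119, 109 and 147 CPM in hTau.P301S + NR. All hTau.P301S mice lay below all WT and all hTau.P301S + NR mice. Dlg4 was at 746, 607, 779 and 718 CPM in WT, at 878, 757, 520 and 697 CPM in WT + NR, at 445, 705, 869 and 759 CPM in hTau.P301S and at 638, 685, 654 and 661 CPM in hTau.P301S + NR, and its groups overlapped throughout. Dlg2 and Dlg3 ranged from 92.4 to 422 and from 98.7 to 244 CPM. Shank1 was at 395, 167, 500 and 526 CPM in WT, at 432, 450, 244 and 410 CPM in WT + NR, at 40.6, 298, 306 and 293 CPM in hTau.P301S and at 375, 325, 422 and 422 CPM in hTau.P301S + NR. Its hTau.P301S values were all below those of hTau.P301S + NR, and below those of the WT mice other than replicate 2. Shank2 and Shank3 ranged from 39.2 to 194 and from 49.7 to 445 CPM, with hTau.P301S replicate 1 lowest in both.

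Homer3, a member of the family of adaptors that tie mGluR1 and mGluR5 to Shank proteins and to calcium stores, was at 26.8, 24.8, 32.9 and 17.3 CPM in WT, at 51.7, 34.0, 11.7 and 35.5 CPM in WT + NR, at 58.0, 44.8, 60.2 and 40.2 CPM in hTau.P301S and at 29.3, 19.4, 29.6 and 6.80 CPM in hTau.P301S + NR. The hTau.P301S mice were above every WT and every hTau.P301S + NR mouse, while WT + NR spanned from low to high. Homer1 and Homer2 ranged from 39.1 to 164 and from 28.4 to 102 CPM. Camk2a was at 3050, 1600, 3360 and 3150 CPM in WT, at 4830, 3850, 1300 and 3390 CPM in WT + NR, at 934, 3430, 4070 and 4390 CPM in hTau.P301S and at 3480, 2600, 3640 and 2130 CPM in hTau.P301S + NR. The lowest mouse of each group was again 1 of the 4 that stood apart. Camk2b ranged from 540 to 1790 CPM. The neuroligin Nlgn3, found at excitatory and inhibitory synapses, was at 53.1, 36, 67.2 and 57.4 CPM in WT, at 77.5, 61.0, 42.1 and 54.2 CPM in WT + NR, at 63.5, 54.8, 55.2 and 62.9 CPM in hTau.P301S and at 61.4, 59.7, 57.2 and 49.7 CPM in hTau.P301S + NR, and Nlgn1, at excitatory synapses, ranged from 36.1 to 91.2 CPM.

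The genotypes were compared without NR, as hTau.P301S against WT mice. Sex was not balanced and the background strain of WT is not given, so the transgene cannot be told apart from these here. Homer3 was higher and Grm3 and Dlg1 were lower, but no member passed edgeR's quasi-likelihood test. A gene was called where its adjusted p was under 0.05 and its log2 fold change was above 0.5 in size, which held for 1 of 16375 genes tested, or 0.00611%, and for 0 of 36 members. At an unadjusted p under 0.05, 1 member was higher and 2 were lower, against 3.41% and 3.73% of all genes. The log2 fold change of Homer3 was 1.0 (standard error 0.24, unadjusted p = 0.00265, adjusted p = 0.594). Grm3 had -0.81 (standard error 0.27, unadjusted p = 0.0161, adjusted p = 0.598) and Dlg1 -0.50 (standard error 0.20, unadjusted p = 0.0358, adjusted p = 0.598). With each mouse's trend on gene length removed, Dlg1 was at -0.23 (unadjusted p = 0.238), whereas Grm3 was at -0.79 and Homer3 at 1.02 in edgeR. The groups did not overlap for 1 member higher (Homer3) and 2 lower (Dlg1 and Grik3), against 3.55% and 2.69% of all genes, and the exact permutation p of each was 0.0286, the smallest that 4 against 4 mice allow. For Grm3 the exact permutation p was 0.0571. DESeq2 fitted to all 16 mice called 1 member, Grm3 (-0.82, adjusted p = 0.0403), while it called 2.48% of all genes.

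By role, the 6 metabotropic receptors all had negative fold changes, with a median of -0.59, and none passed the test. The 3 Shank genes were also negative, from -0.76 for Shank1 to -0.23 for Shank3, and both CaMKII genes and both neuroligins were positive, from 0.15 for Nlgn3 to 0.39 for Camk2b. Without hTau.P301S replicate 1, the metabotropic receptors ran from -0.97 for Grm4 to 0.18 for Grm2, with Grm5 at -0.06 and Grm7 at -0.15, so that they were no longer all negative. In the same fit the Shank genes were at -0.42 for Shank1, -0.01 for Shank2 and 0.10 for Shank3. Over the 36 members, 10 fold changes were positive and 26 negative, with a median of -0.23 against 0.02 over all genes tested. Without hTau.P301S replicate 1, 16 were positive and the median was -0.04, against -0.03 over all genes. In that fit, 3 members were higher (Homer3, Camk2b and Grik4) and 3 lower (Grik3, Grm3 and Dlg1) at an unadjusted p under 0.05, against 5.16% and 6.63% of all genes, and the smallest adjusted p among members was 0.285. Without the 4 mice that stood apart, a choice made after seeing the data, 2 members were higher (Homer3 and Camk2b) and 9 lower (Grik2, Grik3, Grin2a, Grin2b, Grm3, Grm8, Dlg1, Shank1 and Homer2), against 6.82% and 9.48% of all genes. The median of the members was then -0.22, near that with all 8 mice. The smallest adjusted p was 0.0585, and 0 members were called. In the 3 WT and 2 hTau.P301S females alone, the median of the members was 0.09. This subset leaves out hTau.P301S replicate 1, a male, and keeps WT replicate 2, a female, so it is not a comparison of sex alone. The 5 endothelial markers summed to 129 to 287 CPM in WT and 82.7 to 159 CPM in hTau.P301S. Other lists had higher ranges in hTau.P301S. The 6 astrocyte markers summed to 811 to 1340 and 1220 to 1960 CPM, where Gfap alone was at 317 to 699 and 666 to 1370 CPM. The 6 oligodendrocyte markers summed to 2750 to 7950 and 7320 to 10100 CPM, and the 6 microglia markers to 305 to 397 and 380 to 1810 CPM. All these ranges overlapped, and the part of these cells in the values above was not tested.

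**Figure D4:**
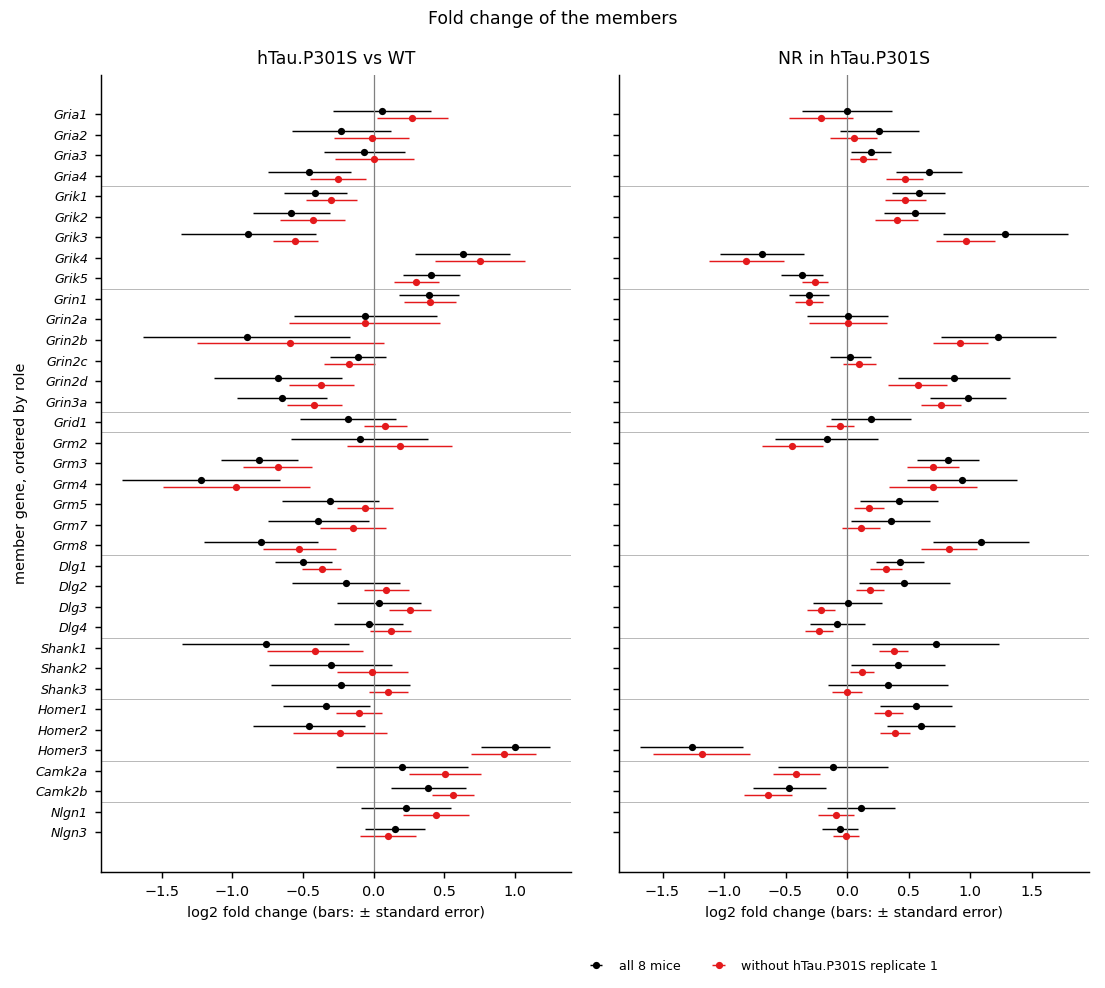
Log2 fold change of each member (points, with bars of 1 standard error) in hTau.P301S relative to WT and for NR in hTau.P301S, with all 8 mice (black) and without hTau.P301S replicate 1 (red). Most black points lie left of 0 in the first panel (26 of 36) and right of 0 in the second (27 of 36), Homer3 does the opposite, and leaving out the replicate moves the medians from -0.23 to -0.04 and from 0.34 to 0.12.

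NR in hTau.P301S mice gave 7 members higher and 1 lower at an unadjusted p under 0.05, against 5.86% and 7.01% of all genes, and again 0 of 36 members were called, against 1 of 16386 genes or 0.0061%. The higher ones were Grin3a, Grm3, Grm8, Grik1, Grin2b, Grik3 and Gria4, and the lower one was Homer3. The log2 fold change of Grm3 was 0.82 (standard error 0.25, unadjusted p = 0.0107) and Grin3a 0.98 (standard error 0.31, unadjusted p = 0.0111). Homer3 had -1.26 (standard error 0.42, unadjusted p = 0.0147), a level 0.417 times that without NR. Grm8 had 1.09, Grik1 0.58, Grin2b 1.23, Grik3 1.29 and Gria4 0.67, with standard errors of 0.39, 0.21, 0.47, 0.51 and 0.27. The adjusted p of all 8 was 0.367 (edgeR), and the exact permutation p of each was 0.0286. DESeq2 fitted to all 16 mice again called 1 member, Grm3 (0.83, adjusted p = 0.0486), with 1.53% of all genes called. The untreated hTau.P301S mice enter both this comparison and that with WT, so opposite signs in the 2 comparisons are not independent of each other.

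The groups did not overlap for 11 members higher and 3 lower with NR, against 6.33% and 5.54% of all genes. The higher ones were Gria4, Grik1, Grik3, Grin2b, Grin3a, Grm3, Grm8, Dlg1, Shank1, Homer1 and Homer2, and the lower ones were Grik5, Grin1 and Homer3. The median of the members was 0.34 against -0.03 over all genes, with 27 positive and 9 negative. In the 2 hTau.P301S and 3 hTau.P301S + NR males alone it was 0.62, and with sex as a term 0.44, both chosen after seeing the data. The hTau.P301S males were replicates 1 and 3, so both values include hTau.P301S replicate 1, the mouse with the lowest member levels. Both CaMKII genes were negative, at -0.11 for Camk2a and -0.47 for Camk2b, as were Grik4 at -0.69, Grik5 at -0.37 and Grin1 at -0.31, and 5 of 6 metabotropic receptors were positive. Without hTau.P301S replicate 1 the median was 0.12, against 0.00 over all genes, and 13 members were higher and 5 lower at an unadjusted p under 0.05, against 10.6% and 7.4% of all genes. The smallest adjusted p was then 0.0785, that of Grin3a. The additional higher members were Grik2, Grin2d, Dlg1, Shank1, Homer1 and Homer2, and the 5 lower ones were Grik4, Grik5, Grin1, Homer3 and Camk2b. Without the 4 mice that stood apart, 11 members were higher and 5 lower, against 9.78% and 8.14% of all genes, with 0 called and a smallest adjusted p of 0.0969. The median of the members was then 0.17. With each mouse's trend on gene length removed, the median was 0.06, Grin2b was at 0.70, Grin3a at 0.61 and Grik1 at 0.36, and Grm3 and Homer3 were at 0.85 and -1.25. Markers of other cells differed between the same mice. Gad2, a marker of inhibitory neurons picked after its values were seen, was at 43.5 to 189 CPM without NR and at 270 to 414 CPM with it, without overlap. Gad1 (146 to 393 and 386 to 535 CPM) and Slc32a1 (80.7 to 109 and 82.2 to 176 CPM) overlapped. Other markers of the list had lower ranges with NR, with overlap: Sst (179 to 609 and 142 to 241 CPM), Pvalb (31.5 to 348 and 23.3 to 59.2 CPM) and Npy (28.3 to 121 and 18.8 to 32.6 CPM). Their highest values were those of hTau.P301S replicate 1. Vip was at 13.1 to 23.3 and 10.1 to 25.1 CPM. The 7 interneuron markers together summed to 900 to 1370 and 1020 to 1470 CPM, the 5 endothelial markers to 82.7 to 159 and 158 to 179 CPM, and the 5 excitatory neuron markers to 1200 to 2340 and 1010 to 1650 CPM. The part of these cells in the members' values was not tested.

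**Figure D5:**
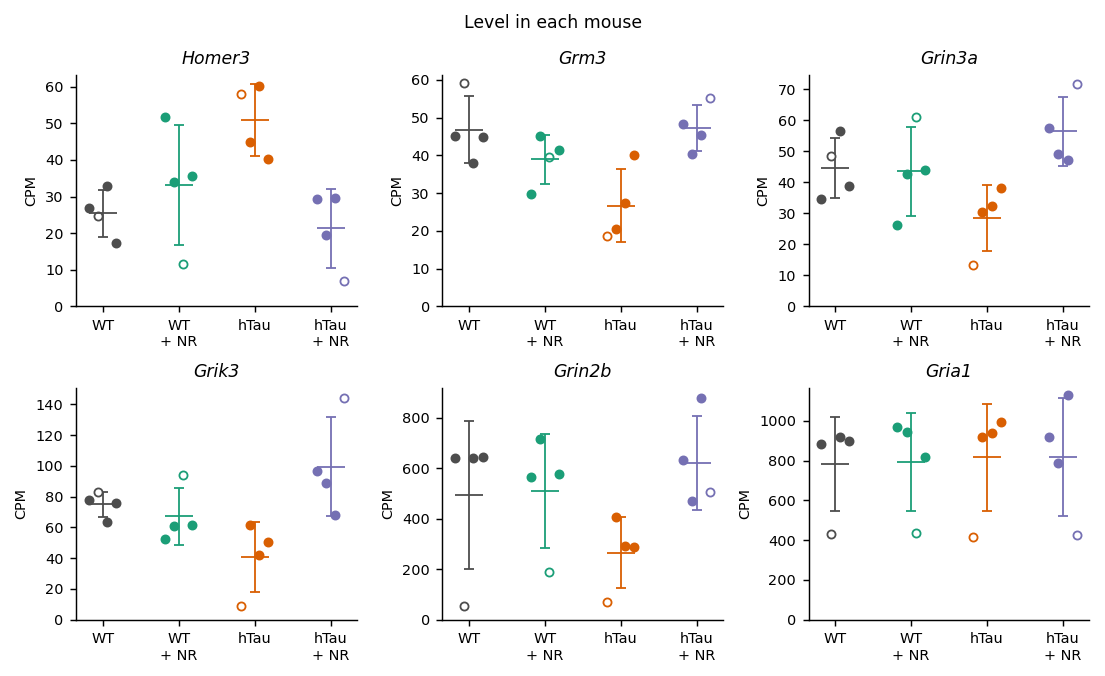
CPM of 6 members in each mouse (circles, replicates 1 to 4 from left to right) with the mean and SD of the 4 mice of a group, where hTau stands for hTau.P301S and open circles mark the 4 mice that stood apart. Homer3 is highest in hTau.P301S, from 40.2 to 60.2 CPM, Grm3, Grin3a, Grik3 and Grin2b are lower in hTau.P301S than in hTau.P301S + NR without overlap, and Gria1 has its 4 lowest values in the open circles.

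The upstream sequences of 3 members that were higher with NR in hTau.P301S are shown so that they can be read beside the values above. They are the members with the smallest p among those with 1 promoter entry in RefSeq and no annotated exon in the 250 bases before the start, and 23 of the 36 members had an entry. Each runs 5′ to 3′ on the strand of the gene and ends just before the RefSeq start, and capitals mark the motifs GGGCGG (GC box) and CCAAT on either strand. TGACGTCA, the cAMP response element, TATAAA and CACGTG were searched too and were not found in these 3 windows.
Grm3, chr5:9725353-9725602, minus strand, GRCm38.p6: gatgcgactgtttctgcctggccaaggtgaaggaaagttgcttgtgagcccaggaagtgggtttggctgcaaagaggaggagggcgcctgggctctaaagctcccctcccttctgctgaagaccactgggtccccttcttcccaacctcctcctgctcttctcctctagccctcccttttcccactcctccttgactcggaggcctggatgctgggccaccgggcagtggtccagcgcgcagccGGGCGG
Grik3, chr4:125490446-125490695, plus strand, GRCm38.p6: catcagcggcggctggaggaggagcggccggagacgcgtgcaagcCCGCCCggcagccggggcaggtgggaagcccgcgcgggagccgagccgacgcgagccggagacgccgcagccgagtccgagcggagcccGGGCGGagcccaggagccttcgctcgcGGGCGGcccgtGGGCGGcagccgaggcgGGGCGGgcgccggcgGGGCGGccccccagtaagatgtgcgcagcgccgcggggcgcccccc
Gria4, chr9:4796235-4796484, minus strand, GRCm38.p6: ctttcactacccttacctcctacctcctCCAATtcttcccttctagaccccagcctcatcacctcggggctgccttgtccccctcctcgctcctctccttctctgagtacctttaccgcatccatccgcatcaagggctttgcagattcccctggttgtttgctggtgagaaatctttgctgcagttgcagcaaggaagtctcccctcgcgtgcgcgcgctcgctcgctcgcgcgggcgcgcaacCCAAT
The window of Grik3 held 6 GC boxes, 42 CpG and 82.0% GC, that of Grm3 held 1 GC box, 8 CpG and 62.4% GC, and that of Gria4 held 2 CCAAT motifs, 16 CpG and 58.8% GC. Over 32851 RefSeq promoter windows of the same length, the median was 6 CpG and 52.4% GC, 32.7% held a GC box, 33.8% a CCAAT motif, 1.55% TGACGTCA, 12.4% TATAAA and 6.02% CACGTG. The RefSeq start of Grm3 lies 182 bases from the nearest end of the gene in GENCODE's annotation, that of Grik3 4 bases and that of Gria4 at that end. A stretch of bases just after the RefSeq start was found in 0 GENCODE transcripts of Grm3, 1 of Grik3 and 2 of Gria4. The window of Grm3 thus rests on the RefSeq start alone.

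Some members share exonic sequence with other genes, and the sources used here do not state whether the counting used strand. Homer3, on chromosome 8 of GRCm38 from 70282827 to 70294361 on the plus strand, shares 25.4% of its exonic bases with Ddx49, an RNA helicase gene on the opposite strand. Ddx49 was at 15.2 to 18 CPM in WT, 17.8 to 41.1 CPM in hTau.P301S and 13.2 to 17.3 CPM in hTau.P301S + NR. Its log2 fold change was 0.53 (standard error 0.30, unadjusted p = 0.106) in hTau.P301S relative to WT and -0.70 (standard error 0.30, unadjusted p = 0.0426) for NR in hTau.P301S, the same signs as Homer3, and its part in the values of Homer3 was not tested. Nlgn3 shares 41.2% with Gm21986, which was at no more than 1.11 CPM in any mouse, and Grin1 shares 13.5% with Grin1os, at no more than 7.63 CPM. The other members shared at most 9.66%.

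NR in WT mice gave no member at an unadjusted p under 0.05, against 0.371% of all genes higher and 0.419% lower, and 0 of 16714 genes (0%) were called. That count of members was 2 without WT + NR replicate 3 and 1 without WT replicate 3, and 4 in females alone. The median of the members was -0.01, with 17 positive and 19 negative. The fold changes ran from -0.48 for Grm4 to 0.39 for Homer3, with standard errors of 0.51 and 0.39. For Grm3 the value was -0.26 (standard error 0.17) and for Grin2b 0.05 (standard error 0.67).

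In hTau.P301S + NR relative to WT + NR mice, 9 of 16671 genes or 0.054% were called and 0 members were. At an unadjusted p under 0.05, 2 members were higher and 0 lower, against 2.42% and 3.67% of all genes. The count in either direction went from 0, without hTau.P301S + NR replicate 1 or 4, to 6, without WT + NR replicate 2. It was 5 without WT + NR replicate 3, 3 without hTau.P301S + NR replicate 3, and 1 without WT + NR replicate 1 or 4. They were the kainate receptor subunits Grik1 (log2 fold change 0.52, standard error 0.20) and Grik3 (0.57, standard error 0.25), both at an adjusted p of 0.781 in edgeR. Homer3 had -0.65 (standard error 0.50) and the median of the members was 0.11, against -0.02 over all genes.

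Over both treatments, with 8 hTau.P301S-carrying mice against 8 WT mice, 28 of 17555 genes or 0.159% were called and 0 members were. No member had an unadjusted p under 0.05, against 3.99% of all genes higher and 5.07% lower. The largest fold changes were -0.50 for Grm4 (standard error 0.37) and -0.38 for Shank1 (standard error 0.33), and the median was -0.05. Without hTau.P301S replicate 1, 1 member, the neuroligin Nlgn1, was higher and 0 were lower, against 6% and 8.73% of all genes, with an adjusted p of at least 0.275 for every member.

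The interaction asks whether NR acted differently in hTau.P301S and in WT mice, and is the difference of both log2 fold changes of NR. It was called for 0 of 17555 genes (0%) by edgeR and for 0 members. At an unadjusted p under 0.05, 8 members had a higher response in hTau.P301S and 1 a lower response, against 3.29% and 4.63% of all genes. They were Grm3 at 1.09 (standard error 0.32, unadjusted p = 0.0037, adjusted p = 0.558), Grik1 at 0.93, Grm8 at 1.20, Grik3 at 1.45, Grik2 at 0.81, Grin3a at 1.02, Dlg1 at 0.55 and Gria4 at 0.87, and Homer3 at -1.64 (standard error 0.60, unadjusted p = 0.0155, adjusted p = 0.558). Of the 9, 3 are kainate receptor subunits. The median of the members was 0.43 against -0.02 over all genes, and 0.17 against 0.01 without hTau.P301S replicate 1, where 7 members were higher and 2 lower, against 4.15% and 3.35% of all genes. No difference in the response to NR between genotypes was shown for a member.

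Other genes of the glutamatergic synapse were examined in 6 lists with 57 genes, all of which passed the filter. None was called in any of the 6 comparisons by edgeR. Between hTau.P301S and WT mice, 2 of the 57 were higher and 1 lower at an unadjusted p under 0.05, near the 3.41% and 3.73% of all genes, with a median of -0.05. The 3 genes, given for their values only, were Cnih2, a cornichon protein that escorts AMPA receptors, at 1.19 (standard error 0.51), Itpka, a kinase of inositol phosphates in dendritic spines, at 1.30 (standard error 0.52), and Grip2, an adaptor that binds AMPA receptors, at -0.84 (standard error 0.33). For NR in hTau.P301S, 6 were higher and 5 lower, against 5.86% and 7.01% of all genes, with a median of 0.04, and the adjusted p was at least 0.345.

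Of 15 AMPA receptor auxiliary subunits, 3 were higher and 2 lower with NR in hTau.P301S at that threshold, and single lists are too short for their counts to be read against the shares of all genes. Cacng4, a TARP that aids AMPA receptor trafficking, was at a log2 fold change of 0.97 (standard error 0.23), Olfm3 0.75 (standard error 0.22) and Cnih2 -1.43 (standard error 0.54). Of the 2 kainate receptor auxiliary subunits, Neto2 was higher at 0.57 (standard error 0.21), and of 6 receptor trafficking adaptors Grip2 was higher at 1.03 (standard error 0.36). Of 17 postsynaptic density adaptors and signalling genes, 1 was higher (Lrrc7, which encodes densin, at 0.70) and 2 lower (Nrgn, the calmodulin-binding neurogranin, at -0.99 and Itpka at -1.67). Of 9 postsynaptic adhesion genes, 0 were higher and 1 lower, Lrrtm1 at -0.48, and of 8 genes of glutamate transport and synthesis 0 were in either direction. The untreated hTau.P301S mice are shared with the comparison with WT here too.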

How the data were processed

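The authors trimmed reads (FastQC and Trim Galore, per the labels), used STAR for alignment to mm10 and RSEM for gene-level counting. The authors deposited the counts as whole numbers without normalization, beside a gene length whose definition is not stated. Versions are not given in the sources used here. Each comparison was fitted to the counts of the 8 mice compared, and the genotype effect and the interaction to all 16, with edgeR 4.0.16 in R 4.3.3 (filterByExpr, TMM, quasi-likelihood test, Benjamini-Hochberg adjustment over all genes). The standard error was the log2 fold change divided by the root of the F statistic. Log2 CPM used a prior count of 2. RPKM is CPM per kilobase of the deposited gene length. Exact permutation tests, two-sided, were run on single members. Scripts were tested on simulated counts. Positions come from GENCODE M21. The members, lists and tests were chosen with earlier results of these data known. All 36 members are named, and those with an unadjusted p under 0.05 in any comparison or the highest RPKM of their role have values in every mouse. Of the pathway lists, at most 3 genes per list with such a p in hTau.P301S vs WT or NR in hTau.P301S are named. Alternatives included DESeq2 1.42.0, other filters and scalings, a length trend removed, sex, and mice left out. Replicates are separate samples per the labels, which do not describe how mice were housed or processed in batches, so p-values measure the spread between these samples.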

Additional observations from a re-analysis of the deposited data

Results flagged for a closer look

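Of 76 sets of 4 mice (19 members in 4 groups), 5 held a mouse whose gap to the nearest other exceeded Dixon's limit as a share of the group's range. Chance flags about 1 in 20, or 3.8 of 76, so the count is near that expected by chance. Gria1 was at 430 CPM in WT replicate 2, against 884 to 920 CPM in the other WT mice, and at 417 CPM in hTau.P301S replicate 1, against 917 to 993 CPM. Grin2b was at 53.1 CPM in WT replicate 2, against 641 to 644 CPM. Shank1 was at 40.6 CPM in hTau.P301S replicate 1, against 293 to 306 CPM. Grik1 was at 7.24 CPM in WT + NR replicate 1, against 11.8 to 12.7 CPM. Thus 2 fell in WT replicate 2, which has the highest striatum marker sum, and 2 in hTau.P301S replicate 1, which has the highest mitochondrial share, and the part of either in these values was not tested. No member's response to NR differed between genotypes at an adjusted p under 0.05 (interaction, edgeR).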

How the results depend on the processing

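The count of members called was 0 in the 6 comparisons and remained so under 138 of 140 alternatives. The exceptions came from DESeq2 fitted to all 16 mice, where 1 member was called, Grm3, in hTau.P301S vs WT (log2 fold change -0.82, adjusted p = 0.0403) and 1 member, also Grm3, for NR in hTau.P301S (0.83, adjusted p = 0.0486). Over all alternatives the adjusted p of Grm3 ranged from 0.0403 to 0.985 and from 0.0486 to 0.658. Of 518 alternative fold changes of members named at an unadjusted p under 0.05, 0 reversed direction and 2 became called. These members were picked by their p in the main fit, and the alternatives reuse the counts of the same mice. A kept direction was therefore likely beforehand and does not measure how firm a value is. Dlg1 with the length trend removed, at -0.23 in hTau.P301S vs WT (unadjusted p = 0.238, edgeR), counts as not reversed. Leaving out each mouse in turn moved the median of the members from -0.44 to -0.04 in hTau.P301S vs WT and from 0.12 to 0.49 for NR in hTau.P301S, where leaving out hTau.P301S replicate 1 gave the value nearest 0 in both, and leaving out WT replicate 2 gave -0.44. Leaving out the 4 mice that stood apart gave -0.22 and 0.17. Removing the length trend gave -0.08 and 0.06. The count at an unadjusted p under 0.05 differed by over 1.5 times in 41 of 140 alternatives, reaching 11 members in hTau.P301S vs WT, 18 for NR in hTau.P301S, 4 for NR in WT, 6 in hTau.P301S + NR vs WT + NR, 3 for the genotype over both treatments and 15 in the interaction. The median for NR in WT ran from -0.09 to 0.19 over all alternatives. With the replicate number as a block, 0 members were called and 7 had an unadjusted p under 0.05 in hTau.P301S vs WT; same-numbered mice are different animals, and the correlation of their deviations ran from -0.54 to 0.29, over 0.1 in 5 of 16 pairs. Sex as a term, a single sex, and leaving out 4 mice were chosen after seeing the data. With 4 mice a group, members with few counts such as Grm8, whose lowest count was 24, carry more counting error.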

Other observations

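Ratios of RPKM between paired subunits or family members were chosen with the levels in view and are given without a test, so no difference between groups is shown by them. The ratio of Grin2a to Grin2b, the 2 subunits whose balance shifts during synapse maturation, was 0.548 to 1.05 in WT, 0.381 to 0.667 in WT + NR, 0.813 to 3.97 in hTau.P301S and 0.289 to 0.528 in hTau.P301S + NR. The value of 3.97 was that of hTau.P301S replicate 1, and the other hTau.P301S mice had 0.813 to 0.985. The value of 1.05 was that of WT replicate 2, and the other WT mice had 0.548 to 0.665. The ratio of Gria1 to Gria2 was 2.98 to 3.71 in WT, 3.15 to 4.58 in WT + NR, 3.85 to 4.02 in hTau.P301S and 2.63 to 3.60 in hTau.P301S + NR, with the narrowest range in hTau.P301S. The ratio of Homer1 to Homer3 was 0.932 to 1.89 in WT, 0.415 to 1.65 in WT + NR, 0.194 to 0.725 in hTau.P301S and 1.20 to 5.52 in hTau.P301S + NR. The value of 5.52 was that of hTau.P301S + NR replicate 4, with 1.20 to 1.57 in the others, and 0.194 was that of hTau.P301S replicate 1, with 0.477 to 0.725 in the others. The ratio of Camk2a to Camk2b was 2.20 to 3.69, 2.94 to 3.67, 1.37 to 3.64 and 3.01 to 4.09 in the same order of groups, all of which overlap.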
